A study of Danio rerio with 12 samples.

Results

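Of 19424 genes and other annotated features whose mean reached 1 FPKM in whole zebrafish larvae, 23 had levels that set all 6 libraries carrying the mda5 mutation apart from all 6 libraries without it, in whichever zbtb24 genotype. FPKM is the number of sequenced fragments scaled to transcript length and to the fragments mapped in the library, a measure of transcript abundance per length. The 23 were chosen by that separation, strictly above or strictly below, so their mda5 changes are given as a description, with no p. A row separated in this way cannot also be separated by zbtb24 genotype, since each zbtb24 genotype holds libraries of both mda5 genotypes. The level was lower with the mutation in 6 features and higher in 17.

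RNA-seq was performed on polyadenylated RNA from pools of 10 larvae at 3 weeks of age, with 3 pools for each of 4 genotypes. Double mutants were homozygous for both mda5mk29 and zbtb24mk22, mda5 mutants for mda5mk29 alone, zbtb24 mutants for zbtb24mk22 alone, and WT larvae carried neither allele. Both alleles are germline mutations, made with CRISPR/Cas9 in mda5 and with TAL effector nucleases in zbtb24, so every cell of a mutant larva carries them. The libraries of 1 genotype are separate pools, and the sources used here do not say whether the pools of different genotypes came from the same parents, so the spread between pools is the only error measured.

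Mda5, encoded by ifih1 in the gene table, is a cytosolic RNA helicase of the RIG-I-like receptor family that binds long double-stranded RNA. On binding it assembles along the RNA and passes a signal through Mavs at the mitochondrial surface, which activates the interferon regulatory factors and so the type I interferons and interferon-stimulated genes. Zbtb24 is a zinc finger protein whose loss in humans causes ICF syndrome, in which immunodeficiency goes with hypomethylated pericentromeric repeats. In this design an effect of mda5 can be read in larvae labelled as lacking Zbtb24 (double mutants against zbtb24 mutants) and in larvae that have it (mda5 mutants against WT), in comparisons that share no library. The mda5 allele was made with the guide below, shown because its target defines the genotype that sorts these genes. The capitals mark the 10 bases that lie nearest the PAM, the seed of the guide.
mda5 guide: ggtgataaacACTGCGACCC

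The sample labels gave fin as the source, whereas the design text described whole larvae, and markers of liver, exocrine pancreas and brain were all measured. The summed level of 4 liver markers was 3799 to 9709 FPKM in the 6 libraries with the mda5 mutation and 2702 to 8505 FPKM in the 6 without it. The 11 marker lists that were examined named 44 genes, for which 36 rows were found, with several rows for rho. In all 11 lists the ranges of the 2 sets of libraries overlapped, and 0 of those rows were separated by mda5 genotype. Of all rows of at least 1 FPKM 0.118% were separated, so this 0 is no result about the tissues. The range of the muscle sum was set by actc1b. It had 16055 FPKM in mda5 mutant 1, 10241 FPKM in zbtb24 mutant 3 and 18394.5 FPKM in WT 1, and was listed at 0 in the other libraries. In bulk larvae, fewer cells of a type and less RNA per cell cannot be told apart. Summed FPKM per library ran between 5.81e+06 and 1.22e+07, of which 84.2% to 89.9% came from the 4 features with the highest mean over all 12 libraries. The WT libraries had the highest sums, 1.03e+07 to 1.22e+07, against 5.81e+06 to 9.57e+06 in the other genotypes. Without those 4 features the sums were 1.15e+06 to 1.62e+06 in WT and 8.11e+05 to 1.01e+06 in the other genotypes.

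The targeted genes and a gene known to depend on Zbtb24 were examined first. The level of ifih1 was 0.573, 0.559 and 0.381 FPKM in double mutants and 0.354, 0.613 and 0.493 FPKM in mda5 mutants, against 1.35, 1.87 and 1.54 FPKM in zbtb24 mutants and 0.751, 0.732 and 0.820 FPKM in WT. The 6 libraries with the mda5 mutation thus lay below the 6 without it, with a mean over all 12 of 0.836 FPKM, just under the minimum, which is why ifih1 is not among the 23. On the scale log2(FPKM + 0.5), the change was -1.05 ± 0.15 (SE, n = 3 each) in double mutants against zbtb24 mutants and -0.37 ± 0.15 in mda5 mutants against WT, with adjusted p = 0.109 and 0.348 in limma over 21623 features. The ifih1 level was higher in the libraries labelled zbtb24 mutant than in WT by 0.71 ± 0.15 (limma, adjusted p = 0.0209).

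The zbtb24 transcript was measured at 1.40, 1.23 and 1.47 FPKM in double mutants and 1.74, 1.40 and 1.06 FPKM in zbtb24 mutants, against 0.469, 0.538 and 0.477 FPKM in mda5 mutants and, in WT, 0.348, 0.510 and 0.587 FPKM. It was therefore higher in all 6 libraries labelled zbtb24 mutant. This goes against what the labels say of a deletion allele. The deletion takes out coding exons and leaves others, and which exons the fragments came from is not known here, so the cause was not tested. The names zbtb24 mutant and double mutant stand throughout for the libraries so labelled. The level of cdca7a, a chromatin factor gene known to depend on Zbtb24, was 0.0445 to 0.101 FPKM in double mutants and 0.0118 to 0.0676 FPKM in zbtb24 mutants, against 2.53 to 2.83 FPKM in mda5 mutants and 2.56 to 3.48 FPKM in WT. The libraries labelled zbtb24 mutant were near 0 for this gene without exception.

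**Figure D1:**
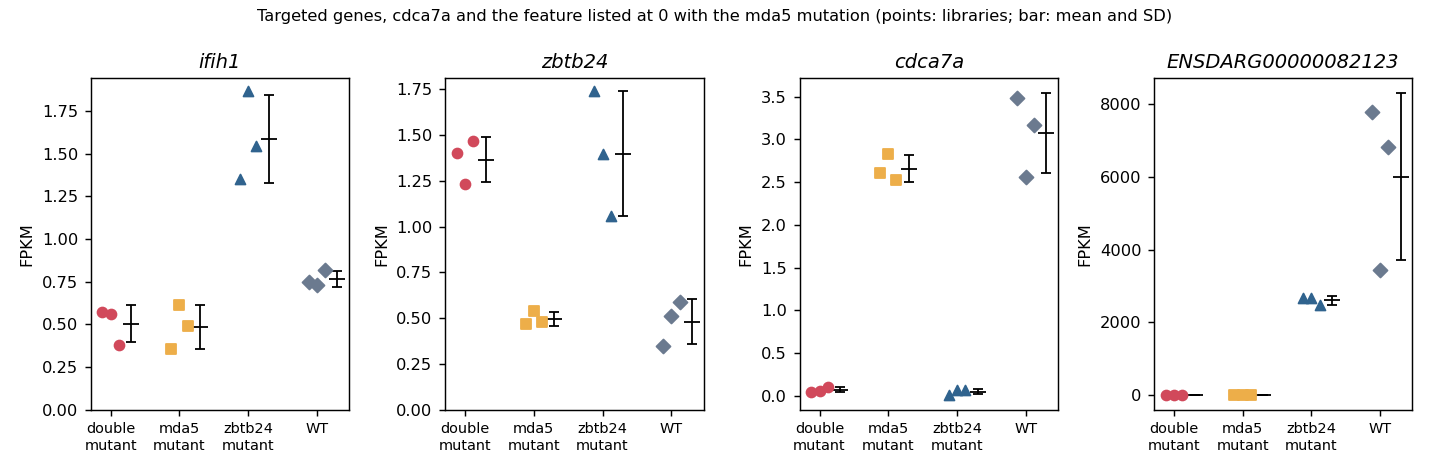
FPKM of ifih1, zbtb24, cdca7a and the feature ENSDARG00000082123 in each library of the 4 genotypes (points), with the mean and SD of 3 libraries beside them. The highest ifih1 values were in the 3 zbtb24 mutant libraries (1.35 to 1.87 FPKM), and ENSDARG00000082123 stood at 0 in each double mutant and mda5 mutant library.

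How the number compares with its background was examined next. The 23 features made up 0.118% of the 19424 rows, with 0.0309% separated downwards and 0.0875% upwards. Grouping the same libraries by zbtb24 genotype separated 532 rows, or 2.74%, of which 237 (1.22%) were lower and 295 (1.52%) higher in the 6 zbtb24 mutant libraries. There are 924 ways to part 12 libraries into 6 and 6, so the smallest exact two-sided permutation p of a separated row is 0.00216, and 19424 rows multiplied by it give 42.0. The 23 rows were thus fewer than that product, which assumes that the libraries can be exchanged between genotypes. That does not hold for the 532 rows separated by zbtb24 genotype, which cannot be separated by mda5 genotype too. These 532 are 2.74% of the rows and alone lower the product little. The rule also favours rows with a small zbtb24 change, so the product is not the number expected in these libraries. Rows are not independent of each other, and no test was made of the number itself.

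Within each zbtb24 genotype, the rows were also examined for separation of 3 libraries against 3, which smaller groups reach more easily than 6 against 6. Most rows so separated were separated in 1 of the 2 comparisons, and those separated in both were mostly opposite in direction. Double mutants were separated from zbtb24 mutants in 4209 rows (21.7%) and mda5 mutants from WT in 4026 rows (20.7%). Both separations occurred in the same direction in 59 rows (0.304%), 24 lower and 35 higher, and in opposite directions in 1022 rows (5.26%). The 23 features are among the 59 by construction, since the rule fixed their direction in both genotypes. Across all rows the 2 mda5 changes had a Pearson correlation of -0.204 and a Spearman rank correlation of -0.471, given as a description over genes, which are not independent replicates.

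**Figure D2:**
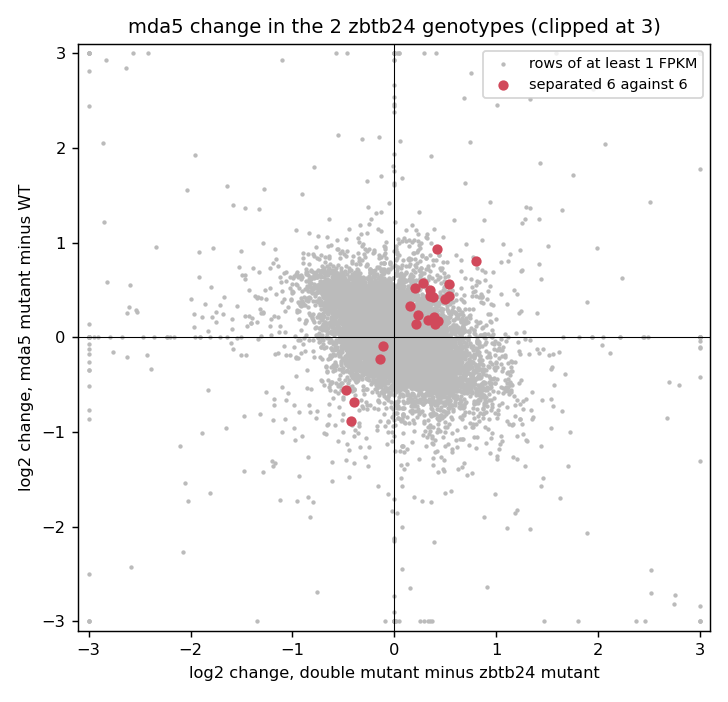
For each row of at least 1 FPKM, the log2 change in double mutants minus zbtb24 mutants (x axis) against that in mda5 mutants minus WT (y axis), on log2(FPKM + 0.5) and clipped at 3. The 22 separated features with a fold (red) lie in the lower left and upper right quadrants, where the rule places them, and the grey cloud of the other rows leans towards the opposite quadrants.

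The separations were narrow. Leaving out ENSDARG00000082123, which was listed at 0 with the mutation, the nearest libraries of the 2 sets were 1.004 to 1.13-fold apart (median 1.03-fold), and less than 1.1-fold in 17 of 22 features. The ratio of the mean with the mutation to the mean without it was 0.600 to 0.930 in the lower features and 1.13 to 1.68 in the higher ones. Of the 22, 6 differed by at least 1.5-fold in these means and 0 by at least 2-fold. The median absolute mda5 change was 0.397 on the log2 scale in the 22 and 0.079 over all rows, a difference that the choice of these features by separation entails. Their mean levels were 1.19 to 119.5 FPKM with a median of 7.004 FPKM, against a median of 5.91 FPKM over all rows.

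**Figure D3:**
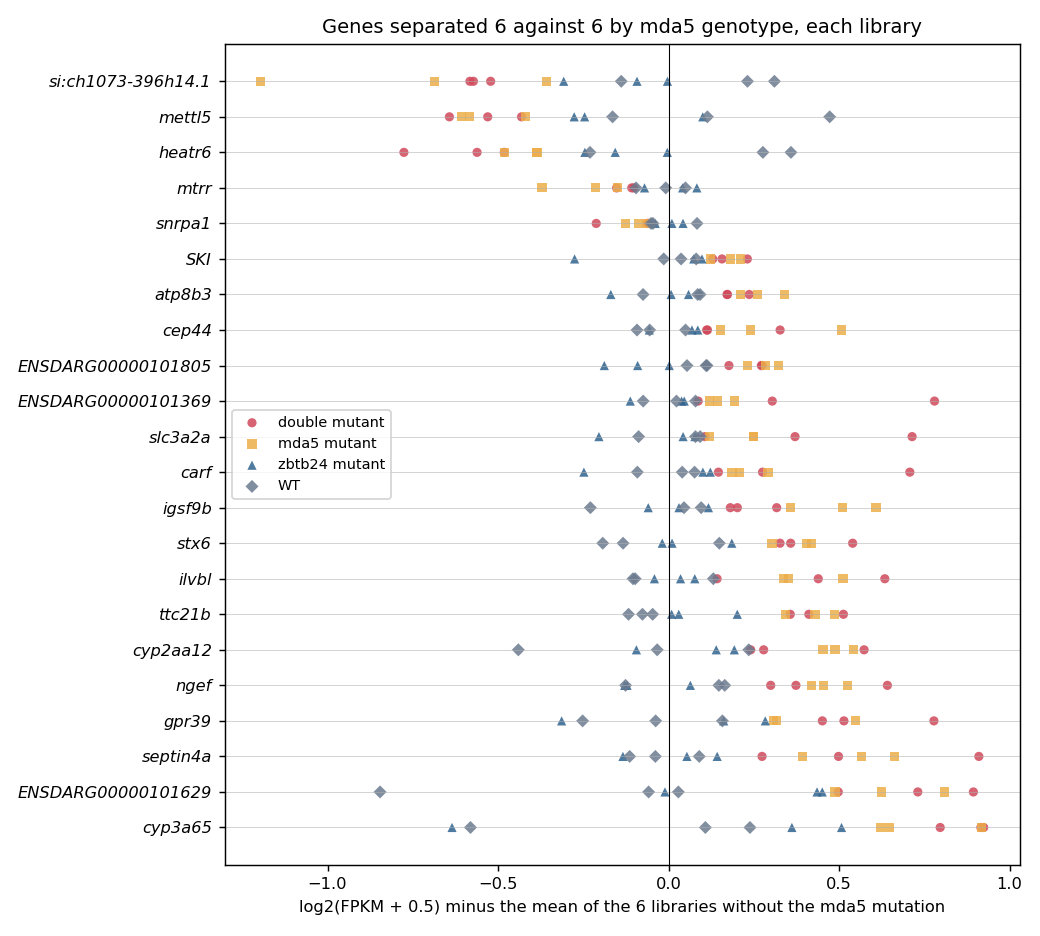
Each library's log2(FPKM + 0.5) of the 22 separated features with a fold, minus the mean of the 6 libraries without the mda5 mutation (x axis). In each line the double mutant and mda5 mutant points lie on one side of the zbtb24 mutant and WT points, with gaps of 1.004 to 1.13-fold between the nearest libraries.

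Among the 6 features that were lower with the mutation, ENSDARG00000082123, which has no symbol in the gene table, was the extreme. It was listed at 0 in all 3 double mutant and all 3 mda5 mutant libraries, against 2663, 2668 and 2459 FPKM in zbtb24 mutants and 7795, 3430 and 6814 FPKM in WT. An exact 0 in these values can be a failed estimate, and no fold is given. Of 50 rows at 0 in each of the 6 libraries with the mutation, this was the 1 row above 0 in all 6 libraries without it. Rows listed at 0 in all 6 libraries without the mutation numbered 46, of which 0 were above 0 in all 6 with it. High values beside zeros were not peculiar to it: 58 rows with a mean over 100 FPKM were listed at 0 in 1 to 11 libraries.

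The other lower features had folds. The uncharacterised gene si:ch1073-396h14.1 had 2.94, 3.06 and 2.92 FPKM in double mutants and 1.73, 3.49 and 2.68 FPKM in mda5 mutants, against 3.63, 4.30 and 4.60 FPKM in zbtb24 mutants and 4.15, 5.51 and 5.84 FPKM in WT. Its mean log2 change was -0.65, with the gap set by mda5 mutant 2 and zbtb24 mutant 1. The level of mettl5, a methyltransferase that modifies ribosomal RNA of the small subunit, was 4.93, 5.79 and 5.37 FPKM in double mutants and 5.15, 5.84 and 5.07 FPKM in mda5 mutants, against 8.59, 6.65 and 6.50 FPKM in zbtb24 mutants and 8.68, 7.07 and 11.3 FPKM in WT. With the mutation the mettl5 libraries lay close together, and without it they were spread more widely. The level of heatr6 was 1.997, 1.86 and 1.54 FPKM in double mutants and 2.17, 2.17 and 1.999 FPKM in mda5 mutants, against 2.98, 2.63 and 2.44 FPKM in zbtb24 mutants and 2.47, 3.97 and 3.72 FPKM in WT. The log2 changes of mettl5 and heatr6 were -0.54 and -0.51.

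The remaining 2 lower genes changed little. For mtrr, the reductase that keeps methionine synthase active, the libraries had 3.27 to 4.05 FPKM (median 3.90) with the mutation and 4.07 to 4.67 FPKM (median 4.44) without it. For snrpa1, which encodes a protein of the U2 snRNP of the spliceosome, the range was 18.8 to 20.9 FPKM (median 20.7) with the mutation and 21.0 to 23.2 FPKM (median 21.6) without it. In both genes the nearest libraries differed by about 1.01-fold.

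Of the 17 higher features, cyp3a65 was the most abundant and had the largest change. It encodes a cytochrome P450 of the CYP3A subfamily, enzymes of liver and intestine that oxidise foreign compounds and steroids. Its level was 161, 162 and 148.5 FPKM in double mutants and 134, 131 and 162 FPKM in mda5 mutants, against 121, 110 and 54.7 FPKM in zbtb24 mutants and 91.9, 101 and 56.9 FPKM in WT. The mean log2 change of both comparisons was 0.80 ± 0.20 (SE, n = 3 per genotype), nearly equal in the 2 zbtb24 genotypes at 0.80 and 0.81. The summed level of 3 intestine markers was 676 to 1378 FPKM with the mutation and 740 to 1021 FPKM without it, and that of liver markers also overlapped, as given above. The part of either tissue in the cyp3a65 level was not tested. A further cytochrome P450 gene, cyp2aa12, had 7.95 to 10.1 FPKM (median 9.40) with the mutation and 4.77 to 7.91 FPKM (median 6.93) without it, a log2 change of 0.43.

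The unnamed feature ENSDARG00000101629 came next by size. Its level was 42.2, 37.7 and 32.0 FPKM in double mutants and 31.8, 34.9 and 39.8 FPKM in mda5 mutants, against 30.9, 30.6 and 22.3 FPKM in zbtb24 mutants and 23.0, 21.6 and 12.3 FPKM in WT. The zbtb24 mutant libraries lay nearer to those with the mda5 mutation than the WT libraries did, and the log2 change was 0.42 in double mutants against zbtb24 mutants and 0.93 in mda5 mutants against WT. The gene septin4a, a GTP-binding protein of the septin cytoskeleton, had 3.99, 5.47 and 3.34 FPKM in double mutants and 4.20, 4.53 and 3.67 FPKM in mda5 mutants, against 3.01, 2.40 and 2.80 FPKM in zbtb24 mutants and 2.88, 2.59 and 2.43 FPKM in WT. The mean septin4a change of both comparisons was 0.55 ± 0.11 (SE, n = 3 per genotype), with 0.54 and 0.56 in the 2 zbtb24 genotypes. Like cyp3a65, septin4a was chosen on these same values, so the SE of its mda5 change is no support for it.

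Several higher genes encode proteins of signalling, membranes and transport. For gpr39, a receptor that senses zinc in mammals, the libraries had 6.92, 8.41 and 6.60 FPKM in double mutants and 5.93, 5.97 and 7.10 FPKM in mda5 mutants, against 3.68, 5.82 and 5.31 FPKM in zbtb24 mutants and 5.30, 4.56 and 3.86 FPKM in WT, a log2 change of 0.49. For ngef, a guanine nucleotide exchange factor that acts downstream of ephrin receptors, they had 11.1, 8.63 and 9.11 FPKM in double mutants and 9.42, 9.66 and 10.2 FPKM in mda5 mutants, against 6.32, 7.25 and 6.28 FPKM in zbtb24 mutants and 7.81, 7.72 and 6.30 FPKM in WT, a log2 change of 0.45. In both genes every library with the mutation lay above every library without it, and the gap was narrower in gpr39 (1.02-fold) than in ngef (1.104-fold).

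The SNARE gene stx6, which acts in membrane traffic at the trans-Golgi network, had 14.5 to 17.2 FPKM (median 15.4) with the mutation and 10.2 to 13.3 FPKM (median 11.6) without it. For slc3a2a, the heavy chain that pairs with several amino acid transporters, the range was 53.2 to 81.3 FPKM (median 58.7) with the mutation and 42.8 to 52.7 FPKM (median 51.5) without it. For igsf9b, a cell adhesion protein of the immunoglobulin superfamily, it was 2.96 to 4.16 FPKM (median 3.36) with the mutation and 2.11 to 2.81 FPKM (median 2.64) without it. The highest slc3a2a value was that of double mutant 2, while the 3 highest igsf9b values were those of mda5 mutants. The flippase gene atp8b3, of the ATPases that move phospholipids across membranes, had 1.69 to 1.96 FPKM with the mutation and 1.23 to 1.57 FPKM without it.

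The other higher genes belong to cilia and centrosomes, gene regulation and metabolism. The gene ttc21b encodes a subunit of the complex that carries cargo from the tip of the cilium back to its base. Its level was 2.48, 2.60 and 2.82 FPKM in double mutants and 2.77, 2.46 and 2.64 FPKM in mda5 mutants, against 1.88, 1.84 and 2.18 FPKM in zbtb24 mutants and 1.71, 1.65 and 1.76 FPKM in WT. Its nearest libraries were 1.13-fold apart, the widest gap among the 22. The centrosomal gene cep44 had 1.17 to 1.69 FPKM with the mutation and 0.946 to 1.14 FPKM without it, and its mean of 1.19 FPKM was the lowest among the 23.

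For ilvbl, an enzyme related to bacterial acetolactate synthase, the range was 8.09 to 11.6 FPKM (median 9.74) with the mutation and 6.74 to 8.02 FPKM (median 7.27) without it. For carf, a calcium-responsive transcription factor in mammals, it was 6.89 to 10.4 FPKM (median 7.39) with the mutation and 5.12 to 6.77 FPKM (median 6.45) without it. For SKI, a corepressor of TGF-β signalling, it was 13.8 to 14.9 FPKM (median 14.3) with the mutation and 10.3 to 13.5 FPKM (median 13.1) without it. SKI had the smallest change of the 17, at 0.17. The features ENSDARG00000101369 and ENSDARG00000101805, which have no symbol, had 16.2 to 26.4 and 3.25 to 3.65 FPKM with the mutation and 14.0 to 16.1 and 2.41 to 3.09 FPKM without it.

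Near the minimum of 1 FPKM the choice of features turned on the level. The genes just inside were cep44, with a mean of 1.19 FPKM, and atp8b3, with 1.62 FPKM. The separated rows just outside were ifih1 and si:rp71-1l17.2, which had a mean of 0.687 FPKM and was higher with the mutation.

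The change between zbtb24 genotypes was fitted with limma over all 21623 features whose mean reached 0.5 FPKM. The rule used the same 12 values and favours rows with a small zbtb24 change, so the counts below describe the 23, and a low count is no result about them. In zbtb24 mutants against WT, 1 of the 23 passed at an adjusted p of 0.05, against 11.6% of all features. It was ENSDARG00000082123, which was lower in the libraries labelled zbtb24 mutant than in WT. It no longer passed when WT 1, WT 3, zbtb24 mutant 2 or zbtb24 mutant 3 was left out, or in a fit of these 2 genotypes alone, each of which gave 0 of the 23. At an unadjusted p below 0.05 there were 2, the other being ENSDARG00000101629, for which the log2 change was 0.58 ± 0.23 (SE, n = 3 each).

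In double mutants against mda5 mutants, 0 of the 23 passed, against 0.134% of all features, and 1 had an unadjusted p below 0.05 in limma. That gene was igsf9b, at 2.96, 3.31 and 3.01 FPKM in double mutants against 3.85, 4.16 and 3.42 FPKM in mda5 mutants (log2 change -0.26 ± 0.11, SE). The interaction term, which asks whether the mda5 change differs between the zbtb24 genotypes, passed for 0 of the 23 and for 0.0% of all features in limma. The rule gave each of the 23 the same direction in both genotypes, so this count too is a description. At an unadjusted p below 0.05 it had 1 of the 23, ENSDARG00000082123, and 5434 of all features (25.1%). When WT 2 was left out, 1 of the 23 passed, the same feature. With 0 in all 6 libraries with the mutation, its interaction restates its difference between zbtb24 mutants and WT. The size of the mda5 change was larger in mda5 mutants against WT than in double mutants against zbtb24 mutants in 14 of the 22 features with a fold.

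The same model gave the background for mda5 over all features. In double mutants against zbtb24 mutants and in mda5 mutants against WT, 1 feature each passed, or 0.00462%. It was ENSDARG00000082123, which the rule had chosen on these values and whose 0 values can be failed estimates, so its passing is not a further result. At an unadjusted p below 0.05 there were 3109 features (14.4%) and 2934 features (13.6%), and for the mean of both changes 864 features (4.0%).

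Position in the genome, which the rule did not use, was described in the gene order of the RefSeq annotation of the GRCz12tu assembly, since the deposited values were made on GRCz10. Of the 23, 17 matched a gene with a chromosome, and 4 of the 17 were on chromosome 9, where ifih1 lies. That is 0.766% of the 522 rows of at least 1 FPKM there. Chromosome 22 held 3, or 0.616% of its 487 rows, a share near that of chromosome 9. There were 2 each on chromosomes 1 (0.313%), 7 (0.275%) and 21 (0.378%). Counting protein-coding genes away from ifih1, ttc21b was 9 places and mettl5 30 places before it, gpr39 80 places after it and carf 601 places before it. The gene order ended less than 100 places after ifih1, so a window of up to 100 places to each side held 184 annotated genes. In that window 3 of 94 rows were among the 23 (3.19%). With up to 10, 25, 50 and 200 places to each side it was 1 of 8, 1 of 21, 2 of 44 and 3 of 153 rows. On the other chromosomes it was 13 of 13205 (0.0984%). The higher share near ifih1 was noticed in a set chosen for its separation and was not tested. In gene order, heatr6 and septin4a were 18 places apart on chromosome 21, and si:ch1073-396h14.1 and stx6 were 30 places apart on chromosome 22.

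Neighbours of ifih1 that were not separated included larger changes, and col28a2a and zgc:92380 were picked out here after their values were seen. The collagen gene col28a2a, 23 places before ifih1, had 0.462, 0.687 and 0.728 FPKM in double mutants and 0.736, 2.93 and 0.825 FPKM in mda5 mutants, against 6.49, 5.55 and 1.75 FPKM in zbtb24 mutants and 5.51, 4.58 and 6.27 FPKM in WT. The uncharacterised gene zgc:92380, 34 places before it, had 12.3, 17.7 and 15.1 FPKM in double mutants and 11.98, 18.7 and 9.95 FPKM in mda5 mutants, against 36.4, 41.3 and 27.7 FPKM in zbtb24 mutants and 31.8, 16.3 and 27.5 FPKM in WT. In col28a2a the library mda5 mutant 2 overlapped zbtb24 mutant 3, and in zgc:92380 WT 2 overlapped 2 of the libraries with the mutation. Of the 50 tested genes within 50 places of ifih1, 0 passed in limma in either mda5 comparison or in their mean. For the mean, 10 had an unadjusted p below 0.05, against 864 of 21623 (4.0%) of all features. The 50 include ttc21b and mettl5, which the rule chose on these same values, so the count of 10 is a description. The parental chromosomes carried by each pool are not given in the sources used here, so the mda5 allele and the sequence linked to it cannot be told apart.

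**Figure D4:**
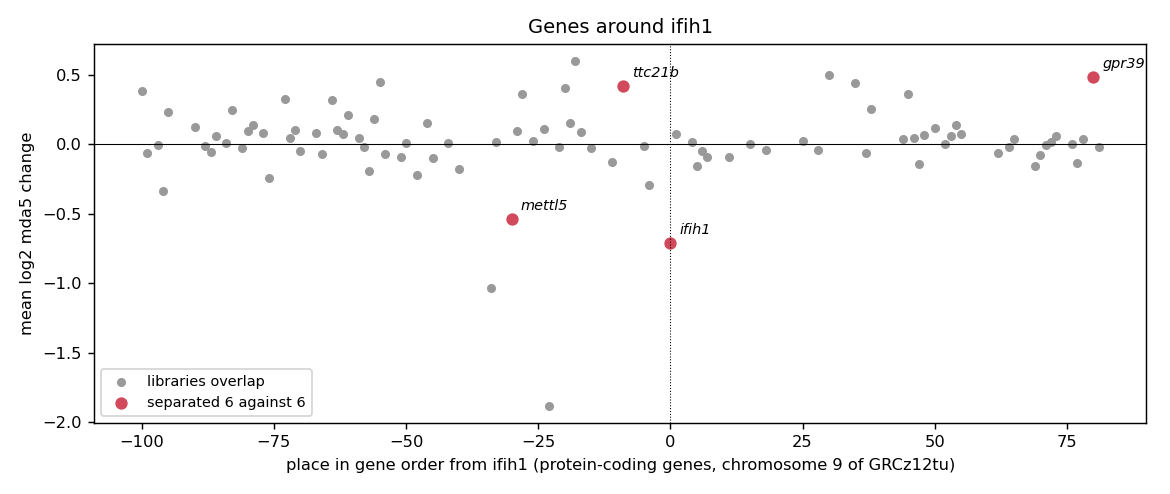
Mean log2 change of the 2 mda5 comparisons (y axis) for genes of at least 1 FPKM, and ifih1, by place in gene order from ifih1 on chromosome 9 (x axis, protein-coding genes of GRCz12tu, up to 100 places to each side). After ifih1 the gene order ends before 100 places. The separated genes near ifih1 are mettl5 (-0.54), ttc21b (0.42) and gpr39 (0.49), and the lowest grey point is col28a2a.

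The genes listed for the RIG-I-like receptor pathway, through which Mda5 acts, were not among the 23. Since 0.118% of all rows of at least 1 FPKM were separated, this absence is no result about a list of this size. Of 28 symbols listed for the pathway, some of them alternative names of the same gene, 23 were found and 1 was separated by mda5 genotype, ifih1 itself. Of the 21 that were tested, 0 passed in limma in double mutants against zbtb24 mutants and 0 in mda5 mutants against WT, with 7 and 2 at an unadjusted p below 0.05, against 14.4% and 13.6% of all features. The median change of the pathway was -0.19 and 0.01 in these comparisons, against 0.02 and -0.02 over all features. Irf7, the interferon regulatory factor induced by the response itself, had a log2 change of -1.34 ± 0.23 in double mutants against zbtb24 mutants and -0.01 ± 0.23 in mda5 mutants against WT (SE, n = 3 each), with adjusted p = 0.270 and 0.989 in limma.

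Of 40 interferon-stimulated genes listed, 33 were found, 32 were tested and 0 were separated by mda5 genotype. Of all rows of at least 1 FPKM 0.118% were separated, so a 0 in a list of this size is no result about it. The genes irf7, dhx58 and trim25 stood in both this list and that of the pathway. In double mutants against zbtb24 mutants 31 of the 32 were below 0, with a median of -0.56, and 0 passed in limma (16 at an unadjusted p below 0.05). Of all features, 10133 of 21623 were below 0 and 14.4% had an unadjusted p below 0.05. In mda5 mutants against WT 25 of the 32 were above 0, with a median of 0.15, and 0 passed (1 at an unadjusted p below 0.05), against 10170 of 21623 above 0 and 13.6% at an unadjusted p below 0.05 over all features. For the helicase gene dhx58, a regulator of Mda5 signalling, the log2 change was -1.79 ± 0.30 in double mutants against zbtb24 mutants and 0.22 ± 0.30 in mda5 mutants against WT (SE, n = 3 each), with adjusted p = 0.268 and 0.744 in limma. In zbtb24 mutants against WT, 13 of the 32 passed and all 13 were higher (median 1.02), against 2502 of 21623 features (11.6%), of which 1063 were higher. The medians of this list had opposite signs in the 2 mda5 comparisons, whereas the rule gave each of the 23 the same sign in both.

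How far the 23 depend on the scaling of the values was checked feature by feature. After quantile normalization 25 rows were separated (15 higher) and 17 were shared with the 23. After centring each library on its median 23 rows were separated (18 higher) and 20 were shared. Both scalings kept 16. When values were rescaled without the 4 most abundant features, the median of all rows shifted upwards by 0.19 on the log2 scale and 86 rows were separated, of which 85 were higher. The 4 features shared with the 23 were septin4a, ngef, cyp3a65 and ENSDARG00000082123. In that rescaling each library was multiplied by a common factor, which moves all its rows by nearly the same log2 amount. Relative to the shift, all 17 higher features therefore stayed above and all 6 lower features below, which is no further result. Requiring a gap of at least 1.5-fold between the nearest libraries left 1 row, ENSDARG00000082123.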

How the data were processed

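Reads were trimmed with Trimmomatic 0.33, mapped with TopHat2 2.1.1 to GRCz10 and quantified with Cufflinks 2.2.1 and Cuffnorm, per the submitters' processing notes. The deposited values are FPKM scaled between libraries by the authors, in 1 table of 32271 features and 12 libraries (0 other columns of sample values). Fragments per library are unknown, so precision rests on the spread between pools. Symbols came from a gene name table, and 17215 features matched the RefSeq annotation of GRCz12tu (49597 genes). For matched features that annotation gave the name shown, the chromosome and the gene order.

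Rows with a mean of at least 1 FPKM entered the separation rule. Features whose mean reached 0.5 FPKM were tested with limma 3.58.1 in R 4.3.3 on log2(FPKM + 0.5), which understates changes of low genes, with 4 genotype means over all 12 libraries, mean-variance trend and Benjamini-Hochberg adjustment. The script was tested on simulated data. The members and lists were chosen with earlier results of these data known. Named genes were ifih1, zbtb24, the members with the lowest and highest mda5 changes, those on the chromosome of ifih1, and separated rows next to the minimum. All other members were added to account for each. Alternatives were other pseudocounts, minimums and scalings, a replicate block, the compared genotypes alone and leaving out each library. The motif search in promoters and the placing of the guide in the protein were not run.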

Additional observations from a re-analysis of the deposited data

Results flagged for a closer look

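Of 47 sets of 6 libraries examined for a library far from the other 5, 3 had one, and chance alone gives about 1 set in 20. For carf, double mutant 1 had 10.4 FPKM and the next of the 6 libraries with the mda5 mutation 7.67 FPKM, a gap of 0.777 of the range of the 6. For ENSDARG00000101369, double mutant 1 had 26.4 FPKM and the next library 18.9 FPKM, a gap of 0.736 of the range. For SKI, zbtb24 mutant 3 had 10.3 FPKM and the next of the 6 libraries without the mutation 12.5 FPKM, a gap of 0.672 of the range. In each case the library lay away from the other set, so the separation did not rest on it.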

How the results depend on the processing

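The number of separated rows followed the filter and the libraries used. It was 14 at a minimum mean of 5 FPKM, 38 with no minimum, 86 after rescaling without the 4 most abundant features and 1 with a gap of at least 1.5-fold. Leaving out 1 library gave 34 to 74, the highest without double mutant replicate 3, and each time included the 23, as fewer libraries can only relax the rule. The number on the chromosome of ifih1 was 2 after that rescaling and 0 with the wider gap, and reached 7 without WT replicate 1. After that rescaling the members ttc21b, carf, mettl5 and gpr39 were no longer separated, so the 2 were other rows. The members that passed in zbtb24 mutants against WT were 0 in the fit of the compared genotypes alone, and 0 to 1 with 1 library left out, and those that passed for the interaction were 0 to 1. In double mutants against zbtb24 mutants, 2 of all features passed with a pseudocount of 1, with quantile normalization and in the fit of the compared genotypes alone, and 1 to 5 with 1 library left out. In mda5 mutants against WT, 3 passed with quantile normalization and in the fit of the compared genotypes alone, and 1 to 3 with 1 library left out, as for the mean of both changes. The cause of these shifts was not tested.

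With the replicate number as a block, 1 feature passed in each mda5 comparison and 1 member in zbtb24 mutants against WT, as without it. Whether the numbers pair the libraries was not tested. The mean correlation of same-numbered deviations was -0.0375 to 0.0882. Within the mda5 comparisons, 6 of 12 libraries correlated best with their own number, out of 3 candidates each.

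Of 459 mda5 changes of 23 genes (the 22 and ifih1) under alternatives of the fit, 0 reversed and 457 moved by less than the replicate SD. The rescaling without the 4 most abundant features was not among these alternatives. It shifted the median of all rows upwards by 0.19, more than the size of the changes of snrpa1 (-0.10) and mtrr (-0.18). The other 2 of the 459 were those of ifih1, at -1.04 for pseudocount 0.1 and -0.52 for pseudocount 1. Because each of these genes is fully separated, leaving out a library or changing the pseudocount cannot reverse its change. The fit without trend, the other minimums and the replicate block left the estimates as they were. The absence of reversals is therefore a description and no support for the changes.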
